A study of Mus musculus with 6 samples.

Results

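The vascular endothelium of B16 melanomas was followed through 10 genes that mark endothelial cells or carry their angiogenic signals. They are Cdh5, Pecam1, Esam, Emcn, Eng, Kdr, Flt1, Tek, Tie1 and Angpt2, taken by gene symbol from count tables that list 55536 genes. Each symbol matched 1 gene, and all 10 had enough counts to be tested. The study measured the RNA of whole tumors grown from B16, a mouse melanoma cell line, with 3 ATM KO tumors and 3 vector control tumors. ATM is a protein kinase of the DNA damage response. About 100000 cells had been placed under the skin of C57BL/6J mice and the tumors were taken on day 13. The knockout was carried by the injected cells, so the host vessels of both groups came from mice of the same labelled strain. The sources used here do not give how ATM was disrupted, whether the injected cells were a clone or a pool, or whether the tumors are from separate mice. All p-values rest on the spread among 6 tumors, which may be technical in part. Genotype cannot be told apart from the cell line that carries it.

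Endothelial cells line blood vessels and are held together by junctional proteins such as VE-cadherin. New vessels grow when vascular endothelial growth factor (VEGF) binds its receptors on these cells. A second system, in which angiopoietins bind the receptor TIE2, sets how stable the vessels are, and angiopoietin 2 is known for loosening them at sites of growth. Endoglin, a co-receptor for bone morphogenetic proteins and transforming growth factor beta, is plentiful on growing vessels. B16 tumors depend on such host vessels for their supply.

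Counts on annotated genes summed to 23663109 to 29037715 in ATM KO tumors and to 22101124 to 24165801 in vector control tumors. Single members had between 11 and 8194 counts per tumor. Log2 levels of all genes tested correlated between 0.976 and 0.989 among the ATM KO tumors and between 0.931 and 0.968 among the vector control tumors. The melanocyte genes that mark B16 cells summed to 20440 to 20764 CPM (counts scaled to the size of the library) in ATM KO tumors and to 20059 to 28804 CPM in vector control tumors, with all 9 listed genes expressed. Fibroblast genes, all 10 of them tested, summed to 1556 to 1786 CPM in ATM KO tumors, against 313, 2339 and 3352 CPM in vector control tumors 1, 2 and 3, so vector control tumor 1 stood apart. Atm RNA was at 97.2, 132 and 107 CPM in ATM KO tumors, against 111, 107 and 95.5 CPM in vector control tumors (edgeR adjusted p = 0.707). The groups overlapped. A summed gene count cannot reveal a small edit, and host cells also express Atm, so the RNA level did not check the knockout.

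No member passed the test between the groups. All 10 had a lower fitted level in ATM KO than in vector control tumors, with a median log2 fold change of -0.50, against -0.01 over the 15696 genes tested. In 5 members, Cdh5, Pecam1, Tie1, Angpt2 and Eng, every ATM KO tumor lay below every vector control tumor, as it did for 15.4% of all genes tested (29.7% counting both directions). None of the 10 reached an adjusted p of 0.05 in edgeR's quasi-likelihood test, which called 4.96% of all genes, 2.75% lower and 2.21% higher. With p below 0.05 before adjustment there were 4, Cdh5, Tie1, Angpt2 and Eng, all lower, where 12.3% of all genes tested were lower and 23% differed in either direction at that level. DESeq2 called 3 lower, Angpt2 (adjusted p = 0.00978), Eng (adjusted p = 0.0237) and Cdh5 (adjusted p = 0.0351). Of the 14160 genes to which DESeq2 gave an adjusted p, it called 14.6%, 8.12% lower and 6.5% higher. Limma-voom called no member, and 4.38% of all genes, 2.41% lower and 1.97% higher. In whole tumors, fewer endothelial cells and less RNA per endothelial cell cannot be told apart.

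The direction of several members rested on vector control tumor 3. That tumor had the highest of the 6 levels in 8 of 10 members, and 14.3% of all genes tested had their highest level there. Without it the median log2 fold change of the members was -0.21, and Kdr, Esam and Tek took a positive sign. Groups that did not overlap, with ATM KO lower, then numbered 5 among the members and 21.7% of all genes tested. Without vector control tumor 1 the median was -0.61 and the groups did not overlap in 7 members (22.5% of all genes tested). The ATM KO tumors were more alike than the vector control tumors. The coefficient of variation was smaller among ATM KO than among vector control tumors in 10 of 10 members, and in 62.3% of all genes tested.

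**Figure D1:**
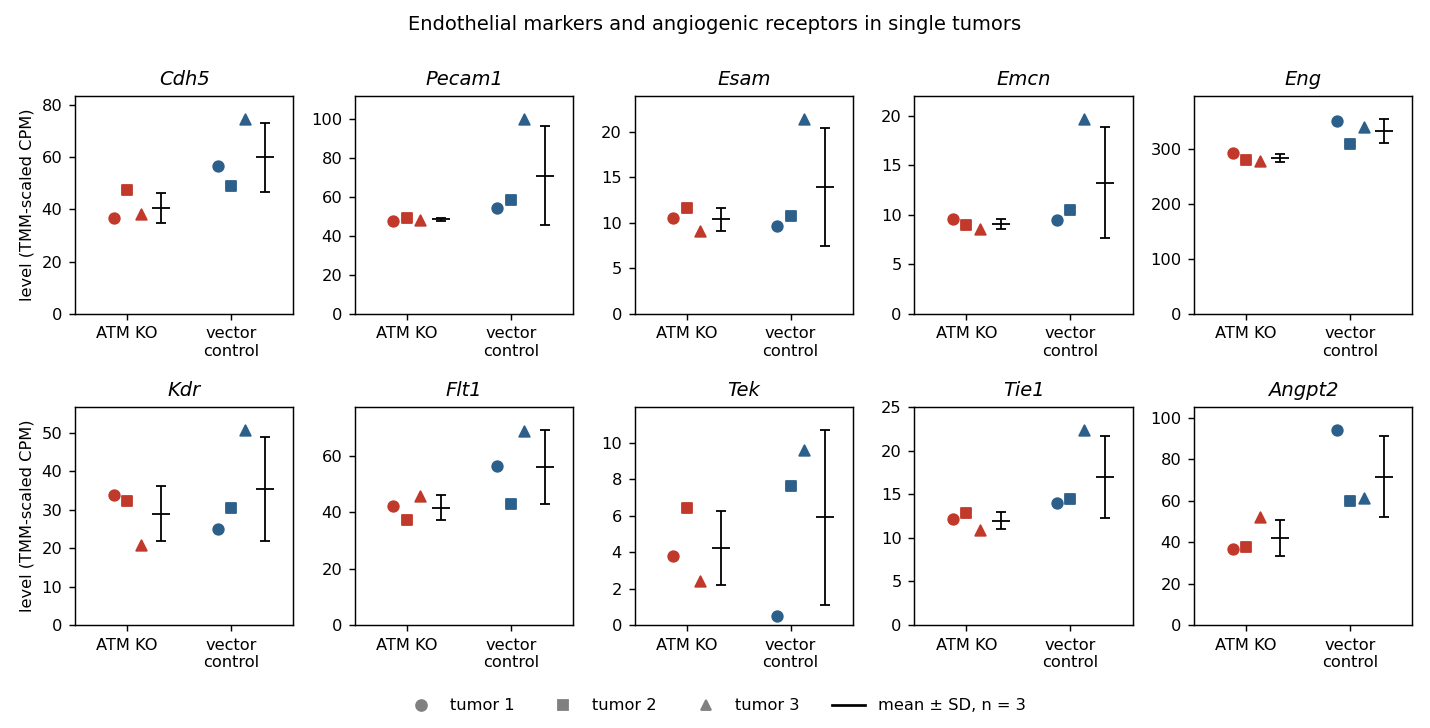
Level of each member in single tumors, in CPM scaled by TMM, with ATM KO left and vector control right. Marker shapes give the tumor number, which is not stated to pair tumors, and black bars the mean ± SD of 3 tumors. The axes start at 0 and differ between genes. Vector control tumor 3 (blue triangle) was the highest point in 8 of 10 panels.

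The 4 surface markers Cdh5, Pecam1, Esam and Emcn are proteins of the endothelial surface. Cdh5 encodes VE-cadherin, the cadherin of endothelial junctions. Its level was 36.5, 47.3 and 38.1 CPM in ATM KO tumors 1, 2 and 3, against 56.7, 48.9 and 74.7 CPM in vector control tumors 1, 2 and 3. The groups did not overlap, although ATM KO tumor 2 and vector control tumor 2 lay close together. The log2 fold change was -0.56 ± 0.18 (SE), with a 95% interval of -0.996 to -0.13 and an edgeR adjusted p of 0.131. Without vector control tumor 3 it was -0.36.

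Pecam1 encodes CD31, an adhesion molecule of endothelial junctions that platelets and leukocytes also carry. Its level was 47.9, 49.5 and 48.5 CPM in ATM KO tumors and 54.6, 58.6 and 100.3 CPM in vector control tumors. The ATM KO tumors were nearly equal (48.7 ± 0.791 CPM, SD, n = 3), and the vector control mean of 71.1 ± 25.3 CPM was carried by tumor 3. The log2 fold change of -0.55 ± 0.24 (edgeR adjusted p = 0.239) became -0.21 without that tumor. Pan-leukocyte genes, all 6 of them tested, summed to 533 to 674 CPM in ATM KO and 335 to 777 CPM in vector control tumors. Of 8 platelet genes 3 had enough counts to be tested, at 6.11 to 15.4 CPM in ATM KO and 11.3 to 32.95 CPM in vector control tumors, and Gp1bb was at 0 in every library. The part of either cell type in the Pecam1 values was not tested.

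Esam and Emcn were less abundant and followed the same tumor. Esam, an adhesion molecule of endothelial tight junctions, was at 10.5, 11.6 and 9.07 CPM in ATM KO tumors, against 9.60, 10.7 and 21.4 CPM in vector control tumors. Emcn, which encodes the sialomucin endomucin of capillaries and veins, was at 9.55, 8.98 and 8.55 CPM in ATM KO tumors, against 9.51, 10.5 and 19.7 CPM in vector control tumors. Both groups overlapped in each gene, and vector control tumor 3 held about the level of the other 2 vector control tumors added together. The log2 fold changes were -0.42 ± 0.32 for Esam (edgeR adjusted p = 0.505) and -0.55 ± 0.29 for Emcn (edgeR adjusted p = 0.313). Without vector control tumor 3 they were 0.04 and -0.14.

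Kdr and Flt1 encode the VEGF receptors VEGFR2 and VEGFR1. VEGFR2 carries most of the growth signal of VEGF, whereas VEGFR1 binds VEGF tightly and also exists as a secreted decoy. Counts over a whole gene do not separate the membrane form of Flt1 from the secreted one. The 250 bases before the transcription start are shown for these receptors and for the TIE receptors, because each pair compares related genes that differed in how they varied between tumors. Capitals mark GGAA, the core of sites for ETS factors, which drive many endothelial genes, on either strand (read as TTCC on the strand shown). The sequences are from RefSeq (GRCm38.p6), 5′ to 3′ on the strand of the gene, and 6 of the 10 members matched its promoter table. Kdr lies at chr5:75978456-75978705 and Flt1 at chr5:147726012-147726261, both on the minus strand.
Kdr: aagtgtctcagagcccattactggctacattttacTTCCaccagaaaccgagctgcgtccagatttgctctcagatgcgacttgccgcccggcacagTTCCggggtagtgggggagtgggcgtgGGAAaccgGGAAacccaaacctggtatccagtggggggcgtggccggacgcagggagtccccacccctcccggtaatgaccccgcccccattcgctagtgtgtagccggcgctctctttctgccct
Flt1: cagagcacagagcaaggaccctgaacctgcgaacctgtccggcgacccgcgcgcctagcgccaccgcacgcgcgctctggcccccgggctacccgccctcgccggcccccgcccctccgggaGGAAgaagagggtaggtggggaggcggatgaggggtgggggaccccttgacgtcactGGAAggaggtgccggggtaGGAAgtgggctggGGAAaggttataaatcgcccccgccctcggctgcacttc

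Each of these windows held 4 GGAA matches on both strands together. GGAA was present in 6 of 6 member promoters and in 93.5% of the 32851 promoters of the table, so its presence sets no gene apart. The longer CCGGAA, which contains GGAA, was found in 1 member, Kdr, and in 12.03% of all promoters. The GATA-type word GATAA was in none of the 6 and in 22.6% of all promoters. The word ACGTG, a form of the hypoxia-response core, was also in none of the 6, and in 16.6% of all promoters. Its other form, GCGTG, was not searched. It can be read in the Kdr window shown and, on the other strand (as CACGC), in the Flt1 window shown. The E-box CANNTG was in 5 of 6, all but Flt1, and in 66.2% of all promoters. All words were searched on both strands, and a match or its absence describes only the letters of these windows.

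Kdr was at 33.8, 32.25 and 20.7 CPM in ATM KO tumors, against 25.1, 30.5 and 50.7 CPM in vector control tumors. The groups overlapped widely, with ATM KO tumor 3 the lowest and vector control tumor 3 the highest of the 6. Its log2 fold change was -0.29 ± 0.31, with a 95% interval of -1.06 to 0.47 (edgeR adjusted p = 0.652), and 0.07 without vector control tumor 3. Flt1 was at 42.0, 37.1 and 45.6 CPM in ATM KO tumors, against 56.3, 42.7 and 68.8 CPM in vector control tumors. Here vector control tumor 2 lay inside the ATM KO range. The log2 fold change of Flt1 was -0.43 ± 0.18, with a 95% interval of -0.86 to 0.01 (edgeR adjusted p = 0.223).

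The balance of the VEGF receptors differed more within groups than between them. The log2 level of Kdr minus that of Flt1 was -0.31, -0.20 and -1.14 in ATM KO tumors 1, 2 and 3, against -1.16, -0.48 and -0.44 in vector control tumors 1, 2 and 3. ATM KO tumor 3 and vector control tumor 1 thus had the lowest Kdr relative to Flt1, one in each group. The mean was -0.55 ± 0.51 in ATM KO tumors and -0.70 ± 0.41 in vector control tumors (SD, n = 3 each).

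Tek and Tie1 encode TIE2, the receptor of the angiopoietins, and TIE1, a related receptor that modulates it and binds no angiopoietin strongly by itself. Tek lies at chr4:94739039-94739288 on the plus strand for the window shown, and Tie1 at chr4:118489850-118490099 on the minus strand. The annotation that gave gene coordinates starts Tie1 at 118490061, so most of its window lies inside the annotated gene, unlike that of Tek.
Tek: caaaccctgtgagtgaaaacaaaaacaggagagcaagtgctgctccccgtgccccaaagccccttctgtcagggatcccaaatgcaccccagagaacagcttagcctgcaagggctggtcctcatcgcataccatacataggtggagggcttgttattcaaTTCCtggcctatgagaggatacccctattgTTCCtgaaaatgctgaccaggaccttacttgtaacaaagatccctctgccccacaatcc
Tie1: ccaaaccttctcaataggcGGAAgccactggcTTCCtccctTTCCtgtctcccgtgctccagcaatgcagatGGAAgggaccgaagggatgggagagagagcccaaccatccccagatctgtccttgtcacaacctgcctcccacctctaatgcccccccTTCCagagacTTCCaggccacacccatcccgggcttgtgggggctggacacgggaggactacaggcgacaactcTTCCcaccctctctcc

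The Tie1 window held 7 GGAA matches and the Tek window 2, and their GC content was 60.4% and 51.2%, beside a median of 52.4% over all promoters. Tie1 was at 12.1, 12.85 and 10.9 CPM in ATM KO tumors, against 14.0, 14.5 and 22.4 CPM in vector control tumors. No ATM KO tumor reached the lowest vector control tumor. For Tie1 the log2 fold change was -0.50 ± 0.20, with a 95% interval of -0.99 to -0.02 (edgeR adjusted p = 0.203). Without vector control tumor 3 it was -0.24.

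Tek was the least abundant and the most variable member. Its level was 3.77, 6.44 and 2.43 CPM in ATM KO tumors, from 92, 180 and 71 counts. In vector control tumors it was 0.487, 7.64 and 9.60 CPM, from 11, 167 and 232 counts. Vector control tumor 1 was therefore the lowest of all 6, and vector control tumors 2 and 3 were the highest. The log2 fold change of -0.49 ± 0.95 had a 95% interval of -2.83 to 1.86 (edgeR adjusted p = 0.832), wide enough to hold a large difference in either direction. It was -1.03 without vector control tumor 1 and 0.07 without vector control tumor 3, and limma-voom gave 0.21. The tumor with the lowest Tek was also the lowest in summed fibroblast (313 CPM), pan-leukocyte (335 CPM), macrophage (468 CPM), muscle (30.2 CPM) and adipocyte (41.2 CPM) genes. It was not the lowest in platelet or erythroid genes. The part of these differences in the Tek values was not tested.

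Angpt2 encodes angiopoietin 2, which endothelial cells store and release and which competes with angiopoietin 1 for TIE2. It had the largest fitted difference of the 10. Its level was 36.4, 37.7 and 51.9 CPM in ATM KO tumors, against 93.9, 59.6 and 61.0 CPM in vector control tumors. The groups did not overlap, with ATM KO tumor 3 nearest to the vector control tumors. For Angpt2 the log2 fold change was -0.77 ± 0.23, with a 95% interval of -1.32 to -0.21 and an edgeR adjusted p of 0.118. Vector control tumor 1 was the highest in Angpt2, where most members were highest in vector control tumor 3. Without it the log2 fold change was -0.52. Melanocyte genes summed to at most 20764 CPM in ATM KO tumors, and to 28804, 22085 and 20059 CPM in vector control tumors 1, 2 and 3. Vector control tumor 1 was thus the highest in both Angpt2 and the melanocyte sum. That sum includes Dct, itself lower in ATM KO (5079 CPM) than in vector control tumors (8521 CPM, edgeR adjusted p = 0.0434). Of the 9 melanocyte genes 6 had a positive log2 fold change, with a list median of 0.10. The part of tumor cells in the Angpt2 values was not tested.

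Eng, the endoglin gene, was the most abundant member. Its level was 292, 280.4 and 278 CPM in ATM KO tumors, against 351, 309 and 339 CPM in vector control tumors. The groups did not overlap, and the coefficient of variation was 2.66% among ATM KO and 6.45% among vector control tumors. Eng had a small log2 fold change, -0.23 ± 0.07, with a 95% interval of -0.41 to -0.05 and an edgeR adjusted p of 0.130. It stayed between -0.25 and -0.19 when each tumor was left out in turn. Macrophages and fibroblasts are also known to carry endoglin. Macrophage genes, all 9 of them tested, summed to 845 to 1138 CPM in ATM KO and 468 to 1277 CPM in vector control tumors. Eng was highest in vector control tumor 1, the lowest of the 6 in fibroblast (313 CPM) and macrophage (468 CPM) sums. That tumor was the highest in the melanocyte sum (28804 CPM). The part of macrophages, fibroblasts and tumor cells in the Eng values was not tested. Of the exonic bases of Eng, 61 (1.51%) are shared with Fpgs on the other strand, and no other member shares exonic bases with another annotated gene.

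**Figure D2:**
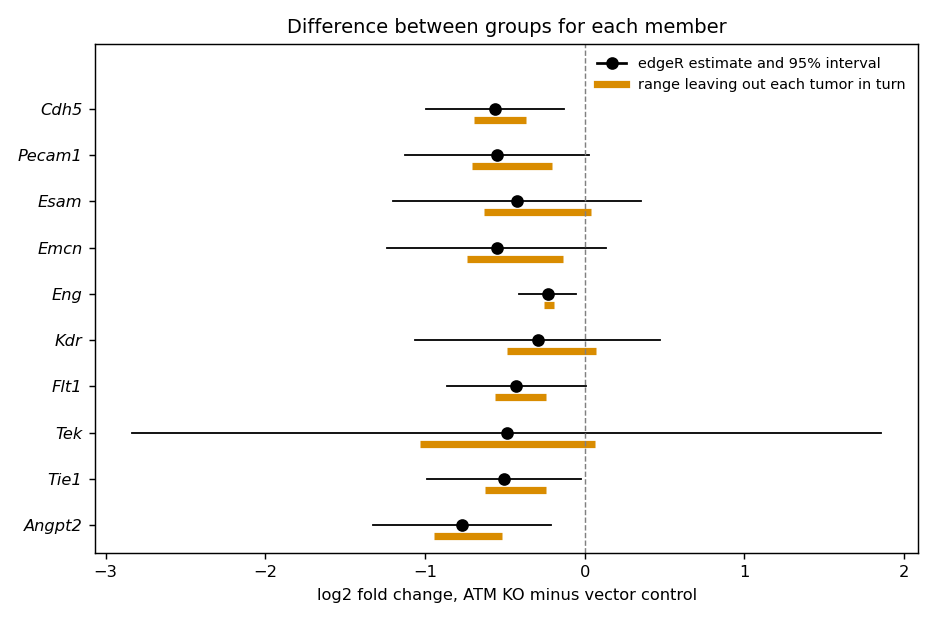
Log2 fold change of each member, ATM KO minus vector control, with the edgeR estimate (black point) and its 95% interval (black line). The orange bar spans the estimates obtained when each of the 6 tumors was left out in turn. The bars of Esam, Kdr and Tek cross 0, and that of Eng, between -0.25 and -0.19, is the shortest.

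Per unit of exonic length, Eng stood far above the rest. In TPM (counts divided by the length of the annotated exons and scaled to a common total), Eng averaged 263 ± 9.58 in ATM KO and 298 ± 12.6 in vector control tumors (SD, n = 3 each, as for the other levels given in TPM). Angpt2 followed at 42.6 ± 8.69 TPM in ATM KO and 69.997 ± 16.5 TPM in vector control tumors. Cdh5 averaged 36.2 ± 4.78 TPM in ATM KO and 51.9 ± 11.7 TPM in vector control tumors. Angpt2 exceeded Cdh5 in 4 of 6 tumors, so these neighbors did not differ beyond their spread. Pecam1 averaged 29.3 ± 0.159 TPM in ATM KO and 41.6 ± 15.4 TPM in vector control tumors, below Cdh5 in 6 of 6 tumors although the vector control ranges overlapped. Esam (13.6 TPM in ATM KO and 17.7 TPM in vector control tumors), Flt1 (11.5 TPM in ATM KO and 15.03 TPM in vector control tumors), Kdr (11.997 TPM in ATM KO and 14.3 TPM in vector control tumors) and Tie1 (9.11 TPM in ATM KO and 12.6 TPM in vector control tumors) formed a run in which the ranges of neighbors overlapped in both groups. The lowest were Emcn, at 6.26 ± 0.396 TPM in ATM KO and 8.92 ± 3.89 TPM in vector control tumors, and Tek, at 3.34 ± 1.59 TPM in ATM KO and 4.63 ± 3.77 TPM in vector control tumors. Emcn exceeded Tek in 6 of 6 tumors.

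The members did not all vary together. The mean log2 CPM of the 10 was 4.69, 4.79 and 4.57 in ATM KO tumors 1, 2 and 3, against 4.66, 4.97 and 5.55 in vector control tumors 1, 2 and 3, so vector control tumor 1 lay inside the ATM KO range. Each member's profile over the 6 tumors, centered on its own mean, was compared with the mean profile by its root mean square distance. Tie1 (0.09), Pecam1 (0.11), Emcn (0.12) and Esam (0.13) lay closest to it, and Angpt2 (0.53) and Tek (1.20) farthest. Skeletal muscle genes, 14 of them tested, summed to 722 to 8518 CPM in ATM KO tumors and to 30.2, 77.5 and 8423 CPM in vector control tumors 1, 2 and 3. Vector control tumor 3, highest in most members, also held by far the most muscle RNA of its group. All 14 tested muscle genes had a positive log2 fold change, with a median of 0.73, where the members were negative. No muscle gene passed in edgeR, and 2 had p below 0.05 before adjustment. Adipocyte genes, 9 of 10 tested, summed to 79.1, 199.8 and 152 CPM in ATM KO tumors and to 41.2, 716 and 861 CPM in vector control tumors. All 9 had a negative log2 fold change, with a median of -2.78. Erythroid genes, 5 of 8 tested, summed to 20.1, 8.88 and 454 CPM in ATM KO tumors and to 576, 61.9 and 733 CPM in vector control tumors, and all 5 were negative, with a median of -1.52. Vector control tumor 3 was the highest of the 6 in both sums, as in most members, although the groups overlapped. No gene of either list passed in edgeR (1 adipocyte gene and no erythroid gene had p below 0.05 before adjustment). That tumor was also the highest in summed fibroblast (3352 CPM), mural (714 CPM), pan-leukocyte (777 CPM), macrophage (1277 CPM) and platelet (32.95 CPM) genes, but not in muscle genes. The mural sum there included 350 CPM of Des and 124 CPM of Mcam. Des was highest (386 CPM) in ATM KO tumor 2, the tumor highest in summed muscle genes. The mean log2 CPM of the mural list was also highest in vector control tumor 3 (4.21). The part of these tissues and cells in the member levels was not tested. Removing muscle, adipocyte, keratinocyte and erythroid genes before scaling left the median of the members at -0.50. That step acts on the scaling only. It leaves any member RNA from these tissues in the counts, so it cannot show their part.

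**Figure D3:**
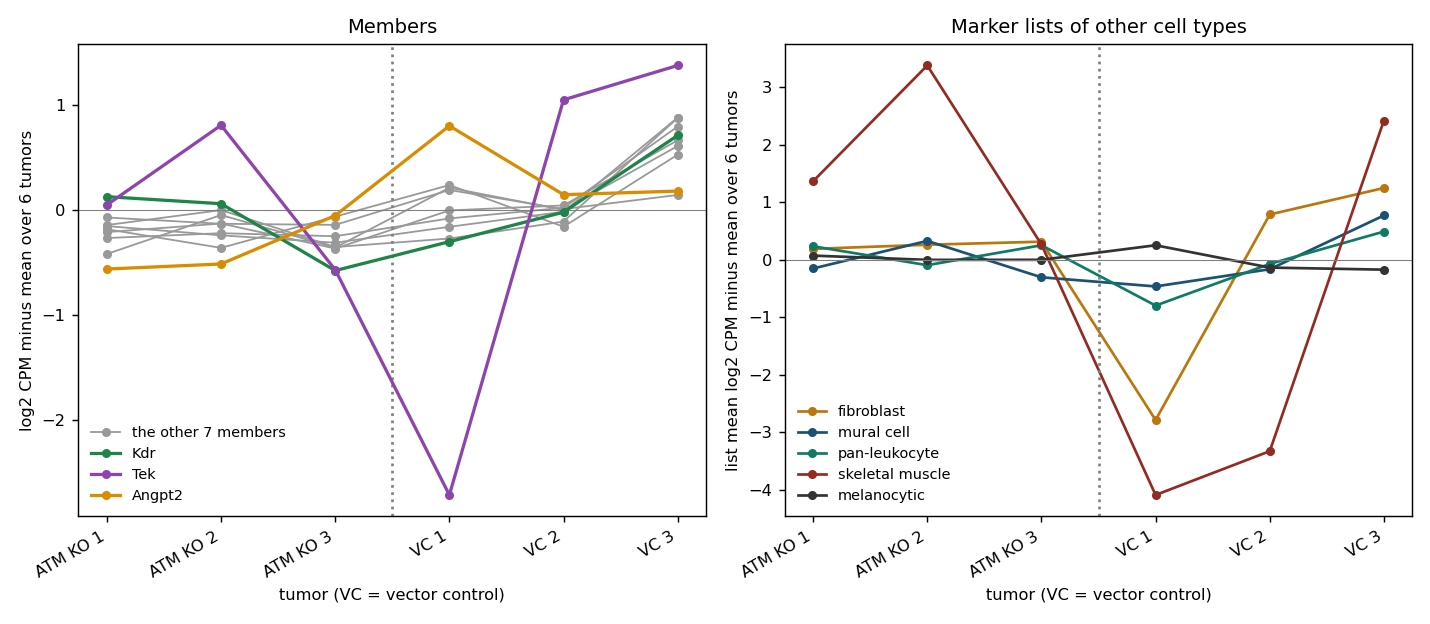
Left, log2 CPM of each member in the 6 tumors minus its mean over them, with ATM KO left of the dotted line. Right, the same for the mean log2 CPM of marker lists of other cell types, on its own scale. Lines join the values of 1 gene or list, and tumors have no order within a group. Tek and the fibroblast, mural, pan-leukocyte and muscle lists were lowest in vector control tumor 1, while Angpt2 and the melanocytic list were highest there.

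Relative to the mean of the 4 surface markers in the same tumor, no receptor, ligand or co-receptor separated the groups. Tie1 kept the steadiest ratio, at -0.75, -0.79 and -0.84 log2 units in ATM KO tumors and -0.72, -0.72 and -0.91 in vector control tumors. Angpt2 was at 0.83, 0.76 and 1.41 in ATM KO tumors and 2.02, 1.32 and 0.53 in vector control tumors, so the vector control range enclosed the ATM KO range. Eng was at 3.83, 3.65 and 3.83 in ATM KO tumors and 3.92, 3.69 and 3.01 in vector control tumors. The difference between group means, ATM KO minus vector control, lay between -0.29 for Angpt2 and 0.65 for Tek over the 6 genes, and both groups overlapped in all 6.

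The chromosomal neighborhood of the members was also read. Within 5 Mb to either side, the median log2 fold change of the tested neighbors lay between -0.28 and 0.10. It was -0.28 over 85 genes around Cdh5 (chromosome 8, 104101625 to 104144511), beside the gene's own -0.56. Around Angpt2 (chromosome 8, 18690263 to 18741562) it was -0.07 over 44 genes, beside the gene's own -0.77. Over the whole of chromosome 8 the median was -0.26 (826 genes), where the chromosomes of the other 8 members had medians from -0.10 to 0.15. Around Eng (chromosome 2, 32646595 to 32682669) it was -0.12 over 141 genes, beside the gene's -0.23. The part of such regional shifts in the member values was not tested.

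Among the other genes of the VEGF and angiopoietin systems, Angpt1 and Nrp1 fell. Angpt1 encodes angiopoietin 1, the activating ligand of TIE2. It was at 3.03, 3.44 and 2.26 CPM in ATM KO tumors, against 6.72, 5.76 and 6.95 CPM in vector control tumors (log2 fold change -1.15 ± 0.22, edgeR adjusted p = 0.0399). Nrp1 encodes neuropilin 1, a co-receptor for VEGF that neurons and other cells also use. It was at 87.3, 79.7 and 77.4 CPM in ATM KO tumors, against 103, 109 and 118 CPM in vector control tumors (log2 fold change -0.44 ± 0.08, edgeR adjusted p = 0.0399). These were 2 of 10 tested genes of the list, where 2.75% of all genes fell, none rose, where 2.21% of all genes did, and the list median was -0.34. Nrp1 lies on chromosome 8, whose median was -0.26. Both calls ended without any 1 of the 3 ATM KO tumors, without vector control tumor 2 and without vector control tumor 3, with adjusted p-values from 0.0811 to 0.163 for Angpt1 and from 0.0950 to 0.161 for Nrp1.

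The log2 level of Angpt2 minus that of Angpt1 was 3.55, 3.42 and 4.47 in ATM KO tumors, against 3.79, 3.35 and 3.12 in vector control tumors, so the ligands' ratio overlapped between groups. Vegfa, the main VEGF ligand, did not pass. Named after its values were seen, it was at 95.2, 99.6 and 232 CPM in ATM KO tumors, against 378, 256 and 212 CPM in vector control tumors (log2 fold change -0.99 ± 0.42, edgeR adjusted p = 0.238). ATM KO tumor 3 and vector control tumor 1 were the highest of their groups in Vegfa, as they were in Angpt2.

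Of 19 further endothelial markers 1 was called, a share near the 4.96% of all genes called in either direction (2.75% lower), so the count is no result about these markers. The gene called was S1pr1, lower in ATM KO tumors, a receptor for the lipid sphingosine 1-phosphate that stabilizes junctions. It was at 12.1, 13.2 and 14.7 CPM in ATM KO tumors, against 21.4, 18.5 and 24.7 CPM in vector control tumors (log2 fold change -0.69 ± 0.14, edgeR adjusted p = 0.0458). Its call ended without any 1 of the 6 tumors, with adjusted p-values from 0.0504 to 0.190. The list median was -0.33, with 15 of 19 below 0 and none called higher. Not every marker pointed the same way. Vwf, which encodes the clotting factor carrier of endothelial storage granules, was at 54.6, 64.9 and 62.9 CPM in ATM KO tumors, against 31.0, 42.4 and 54.3 CPM in vector control tumors (log2 fold change 0.51 ± 0.20, edgeR adjusted p = 0.202). Icam2, an adhesion molecule of endothelium and platelets, was at 27.3, 23.4 and 27.2 CPM in ATM KO tumors, against 21.8, 16.5 and 17.5 CPM in vector control tumors (log2 fold change 0.49 ± 0.13, edgeR adjusted p = 0.0919). Both were named after their values were seen, neither passed, and in both every ATM KO tumor lay above every vector control tumor, as for 14.3% of all genes tested. DESeq2 called Icam2 higher (adjusted p = 0.0232) and 4 of the 19 lower, where it called 6.5% of all genes higher and 8.12% lower, and limma-voom called none.

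Of 12 genes of tip cells, the leading cells of vessel sprouts, and of the vascular basement membrane, none passed in edgeR. All 12 had a negative log2 fold change, where 50.9% of all genes tested did, and the list median was -0.58. The basement membrane genes Nid2, Col4a1 and Col4a2 were the 3 with p below 0.05 before adjustment. Over all genes tested 12.3% were lower at that level. DESeq2 called these 3 and Apln lower, 4 of 12, where it called 8.12% of all genes lower, and limma-voom called none. Col4a1 and Col4a2 lie on chromosome 8 (median -0.26 over its 826 tested genes) and Nid2 on chromosome 14 (median -0.35 over 533). Nid2, which encodes nidogen 2, was at 23.4, 25.8 and 20.2 CPM in ATM KO tumors, against 31.7, 32.1 and 41.7 CPM in vector control tumors (log2 fold change -0.61 ± 0.15, edgeR adjusted p = 0.0682). Col4a1, a chain of type IV collagen, averaged 291 ± 43.5 CPM in ATM KO and 427 ± 99.7 CPM in vector control tumors (SD, n = 3 each; edgeR adjusted p = 0.157), and Col4a2, the chain it pairs with, averaged 157 ± 24.02 CPM in ATM KO and 224 ± 46.3 CPM in vector control tumors (edgeR adjusted p = 0.149). Fibroblasts and mural cells also make these proteins. Apln, which encodes the tip cell ligand apelin and was named after its values were seen, averaged 10.37 ± 4.44 CPM in ATM KO and 31.5 ± 25.7 CPM in vector control tumors (edgeR adjusted p = 0.242). It was at 7.67, 7.95 and 15.5 CPM in ATM KO tumors, against 60.2, 10.5 and 23.8 CPM in vector control tumors, so the groups overlapped. Without vector control tumor 1 its log2 fold change went from -1.60 to -0.72.

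The transcription factors, Notch genes and endoglin partners had no gene that passed in edgeR, DESeq2 or limma-voom. Before adjustment, p was below 0.05 for 23% of all genes tested, 12.3% lower and 10.6% higher, beside which the following counts stand. Of 13 endothelial transcription factors 11 were below 0 (median -0.22) and 1 had p below 0.05 before adjustment. That gene was Erg, an ETS factor of endothelium, at 3.24, 4.94 and 4.14 CPM in ATM KO tumors and 5.88, 5.90 and 9.48 CPM in vector control tumors (log2 fold change -0.79 ± 0.27, edgeR adjusted p = 0.149). Of 11 genes of the Notch pathway, which acts in choosing tip cells, 5 had p below 0.05 before adjustment, 4 of them lower and 1 higher, and the median was -0.09. Nrarp, a target gene and inhibitor of Notch, was at 2.54, 2.33 and 2.60 CPM in ATM KO tumors and 4.33, 2.97 and 6.54 CPM in vector control tumors (edgeR adjusted p = 0.153), without overlap. Jag1, a Notch ligand, averaged 13.6 ± 2.77 CPM in ATM KO and 21.5 ± 6.46 CPM in vector control tumors (edgeR adjusted p = 0.202). Notch4, the endothelial Notch receptor, was at 11.6, 11.8 and 11.1 CPM in ATM KO tumors and 14.7, 13.0 and 18.6 CPM in vector control tumors (edgeR adjusted p = 0.164). The 1 higher gene was Hey2, named after its values were seen. It was at 1.23, 0.895 and 1.71 CPM in ATM KO tumors and 0.663, 0.823 and 0.745 CPM in vector control tumors (log2 fold change 0.78 ± 0.32, edgeR adjusted p = 0.208). Its groups did not overlap, with ATM KO higher, as for 14.3% of all genes tested. Of 11 tested genes around endoglin 1 had p below 0.05 before adjustment, Smad1, which carries the signal of bone morphogenetic proteins, at 22.4 ± 0.844 CPM in ATM KO and 26.6 ± 2.72 CPM in vector control tumors (edgeR adjusted p = 0.196). Their median was -0.03. Acvrl1, which encodes the receptor ALK1 that signals with endoglin, averaged 69.1 ± 13.8 CPM in ATM KO and 52.0 ± 9.32 CPM in vector control tumors (SD, n = 3 each; log2 fold change 0.41 ± 0.18, edgeR adjusted p = 0.248), with overlapping groups.

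Cells that accompany vessels gave no edgeR call either. Of 13 tested mural cell genes, which mark the pericytes and smooth muscle around vessels, 10 were below 0 (median -0.32), 1 had p below 0.05 before adjustment (12.3% of all genes were lower at that level), and DESeq2 called 1 lower (8.12% of all genes) and limma-voom none. That gene was Mcam, an adhesion molecule that melanoma cells and endothelium also carry, at 54.9, 91.0 and 80.1 CPM in ATM KO tumors and 108, 132 and 124 CPM in vector control tumors (log2 fold change -0.69 ± 0.19, edgeR adjusted p = 0.101). None of the 4 tested leukocyte adhesion molecules and none of the 4 tested lymphatic genes had p below 0.05 before adjustment or a call by DESeq2 or limma-voom. Vcam1, through which leukocytes attach to vessels, averaged 33.3 ± 7.97 CPM in ATM KO and 34.6 ± 17.8 CPM in vector control tumors (SD, n = 3 each). Selp, the P-selectin of endothelium and platelets, averaged 1.74 ± 0.809 CPM in ATM KO and 2.14 ± 2.29 CPM in vector control tumors, 1 of which had no count. Lyve1, a hyaluronan receptor of lymphatic endothelium and some macrophages, averaged 11.9 ± 3.76 CPM in ATM KO and 17.3 ± 16.8 CPM in vector control tumors.

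**Figure D4:**
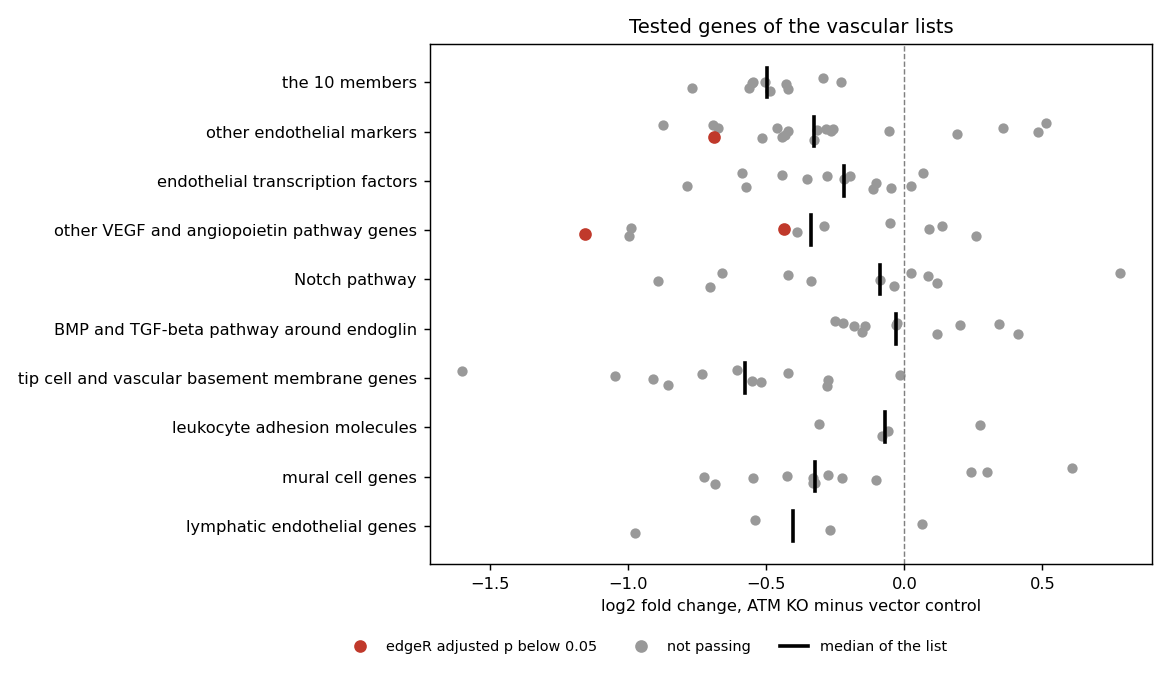
Log2 fold change, ATM KO minus vector control, of the 10 members and of every tested gene in the 9 vascular lists. Red points passed the edgeR test over all genes (Angpt1, Nrp1 and S1pr1), grey points did not, and black bars give list medians, the lowest being -0.58 for tip cell and basement membrane genes. Vertical scatter within a row has no meaning.

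Outside the members, 8 of 11896 protein-coding genes with at least 2 CPM lay closest to the mean profile of the members over the 6 tumors, by the same root mean square distance. They were Lamb1 (0.09), Kitl (0.10), Myo1d (0.10), Adcy4 (0.10), F11r (0.11), Trim14 (0.12), Xbp1 (0.12) and Efna1 (0.12). All had their highest level in vector control tumor 3. None of the 8 remained among the nearest 8 when vector control tumor 3 or vector control tumor 1 was left out, and 2 to 6 remained without any 1 of the other 4 tumors, so the ranking rested on single tumors.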

How the data were processed

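The authors deposited raw read counts per gene, 1 library per tumor. Trim Galore, cutadapt, STAR, SAMtools and HTSeq, and the builds GRCm38 and mm10, are named without versions or order, per the submitters' processing notes. Neither the annotation release nor the strand setting of the counting is given there. All 55536 gene identifiers and symbols matched GENCODE M21 (GRCm38), which supplied coordinates and exonic lengths. Entries without a gene were not used: 16.7% to 18.2% of listed reads fell outside genes and 1.21% to 1.38% on several genes. The counter for multiply aligned reads is 0 in every file, and the treatment of such reads is not given.

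In edgeR 4.0.16, filterByExpr with a minimum count of 10 and a minimum total of 15 left 15696 genes. These were scaled by TMM (factors 0.958 to 1.03), and the robust quasi-likelihood F test compared the genotypes. The Benjamini-Hochberg adjustment ran over every gene tested, and 0.05 was the threshold. CPM are TMM-scaled, log2 CPM use a prior count of 2, and fold changes are ATM KO minus vector control. Intervals are fold change ± SE times the t quantile of the fit. On simulated counts for this comparison (15737 genes tested, 200 changed), 23.5% of the 2-fold changes and 93% of the 4-fold changes were recovered, and 4 of 120 calls were unchanged genes. Every simulated gene had the same biological coefficient of variation, 27.6%, and no differences in tissue content between tumors were simulated. Genes of the real tumors varied unequally, so these rates need not hold for them. Libraries of a group differed by more than sampling noise (chi-square over its degrees of freedom was 21.2 to 79.9), and each counted as 1 sample.

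The 10 members, the 9 vascular lists and the 9 lists of other cell types were chosen with earlier results of these data known, so no set test and no p adjusted over a list is given. Named genes were the members, the called genes of each vascular list or else its 3 with the smallest p, and the 8 tested protein-coding genes nearest to the members' mean profile. The text prints examples and says which others were chosen after their values were seen. Alternatives were median-ratio factors or library size alone, no filter or 1 CPM in 3 libraries, DESeq2 1.42.0, limma-voom (limma 3.58.1), non-robust dispersions, a replicate block, removal of genes of 4 other cell types, thresholds of 0.01 and 0.10, and leaving out each tumor. The likeness ranking was also repeated with other scalings and without each tumor, a choice made after seeing the data.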

Additional observations from a re-analysis of the deposited data

How the results depend on the processing

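All 10 members stayed on their side of the edgeR threshold under every alternative except DESeq2, which called Cdh5 (-0.57), Angpt2 (-0.77) and Eng (-0.23), 3 members lower. The median of the members lay between -0.61 and -0.21. Leaving out 1 tumor gave a log2 fold change of -0.489 to 0.0696 for Kdr, -0.629 to 0.0424 for Esam and -1.03 to 0.0671 for Tek, each positive without vector control tumor 3. Tek was also positive with limma-voom (0.208) and the replicate block (0.0498). The cause was not tested. Among list genes, Selp, Vcam1 and Lyve1 turned positive with limma-voom (1.45, 0.0493 and 0.559) and with the block (0.35, 0.0391 and 0.31). Leaving out 1 tumor gave -0.892 to 0.90 for Selp, -0.370 to 0.416 for Vcam1 and -1.10 to 0.45 for Lyve1.

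Over all genes the edgeR fit called 347 higher and 431 lower, and DESeq2 920 and 1150. With a threshold of 0.01 there were 26 and 22, and with 0.10 there were 783 and 916. Leaving out 1 tumor gave 0 to 587 genes called higher and 2 to 622 genes called lower. The labels do not state that the replicate numbers pair the tumors. Deviations from the group mean correlated at 0.04, -0.27 and -0.42 between tumors of the same number, which cannot settle whether they do. With the replicate block edgeR called 0 genes higher and 0 lower, members and lists included. Before adjustment, 1434 genes were higher and 1570 lower at p below 0.05 with the block.

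Of the lists, further endothelial markers had 1 gene called lower in edgeR, 0 with library size alone, limma-voom, non-robust dispersions or the block, 4 (and 1 higher) with DESeq2, and 0 to 2 lower and 0 to 1 higher without 1 tumor. The VEGF and angiopoietin list had 2 called lower, 1 with library size alone, 0 with the block and 0 to 3 without 1 tumor. Tip cell and basement membrane genes had 4 called lower with DESeq2, 1 without a filter on low counts and 0 to 1 without 1 tumor, mural genes 1 with DESeq2, and Notch genes 0 to 1 without 1 tumor. With 3 tumors a group, an exact permutation test of a single value cannot go below p = 0.1.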
